A study of Mus musculus with 6 samples.

Results

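The 9 genes described here were grouped as genes of the loop of Henle and the distal tubule, the nephron segments between the proximal tubule and the collecting duct. They are Slc12a1, Kcnj1, Bsnd, Umod, Tmem52b, Slc12a3, Wnk4, Sostdc1 and Sim1. They were chosen by name with earlier results of these data known, so counts among them are descriptions. All 9 were found among the 19938 genes with a row of their own on the array. Each gene had 1 row with 1 gene symbol. RNA came from whole E14.5 mouse kidneys, as 3 pools labelled Foxd1 null (Foxd1-/-) and 3 pools of wild type littermates, all from crosses of Foxd1+/- parents. Each pool held 2 kidney pairs from different litters out of 3 litters. With 2 litters per pool, any 2 pools then share at least 1 litter. The litters of each pool were not stated, and the tests below treat the pools as independent. Embryo sex was not determined. Each pool was measured on 1 Affymetrix array, and array medians lay between 6.98 and 7.06 on the deposited log2 scale. Foxd1 is a forkhead transcription factor of stromal progenitors, whereas the cells of these nephron segments arise from nephron progenitors. RNA of whole kidneys does not show which cells gave the signal of a gene.

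In the loop of Henle, the thick ascending limb takes up sodium, potassium and chloride through the cotransporter NKCC2, recycles potassium through ROMK and passes chloride to the blood through channels that need barttin. The distal convoluted tubule after it takes up sodium and chloride through a second cotransporter, NCC, which is switched on by WNK and SPAK kinases. In the embryonic kidney these segments arise from the middle and distal parts of the S-shaped body, a curved epithelial stage that follows the renal vesicle.

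The row of the targeted gene was not lower in the pools labelled null. Foxd1 stood at 10.05, 9.77 and 9.71 in null-labelled pools 1, 2 and 3, against 9.40, 9.55 and 9.69 in wild type pools 1, 2 and 3 (log2 difference 0.30, SE 0.11, limma adjusted p = 0.246). It is not known here whether the row lies inside the deleted part of the gene, so every direction is between pools as labelled. Of 9 measured kidney markers, 0 lay in the range of the receptor genes described below in either group. Marker lists of neighbouring tissues stood higher in 1 or 2 of the null-labelled pools each. Relative to the wild type mean, the median of 7 liver markers was 2.02 in null-labelled pool 3. That of 8 adrenal cortex markers was 1.80 in the same pool. The median of 8 skeletal muscle markers was 1.53 and 1.24 in null-labelled pools 1 and 2, and that of 6 neuron and glia markers was 1.56 and 1.08 in pools 2 and 3. Null minus wild type, the median difference was 1.02 for the muscle list and 0.84 for the neuron and glia list. It was 0.55 for the liver list and 0.34 for the adrenal cortex list. In wild type pool 3 the muscle median was 0.52 and the adrenal median 0.39, the highest of the wild type pools. These lists thus lean to the null-labelled group, and the part of this material in the results was not tested.

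Of the 9 genes, 4 fell in the pools labelled null: Slc12a1, Tmem52b, Sostdc1 and Sim1. None of the 9 rose, 5 did not pass the threshold, and in 6 the groups did not overlap. All differences are null minus wild type in log2 units with the standard error (SE) of limma, and a gene was called where its p, adjusted over all genes by the Benjamini-Hochberg method, was under 0.05. Over all genes 0.767% were called lower and 1.64% higher. Groups without overlap and lower in the null-labelled pools made up 8.04% of all genes. The number of genes called lower over the whole array, 153, was 76 once null-labelled pool 2 was left out, 64 once wild type pool 1 was, and 72 once wild type pool 2 was, while the number among the 9 stayed at 4 or 5 when any single pool was left out. The median difference of the 9 was -0.74, against 0.01 over all genes. Because the 9 were chosen with earlier results of these data known, setting them beside all genes is a description and not a test. In whole kidneys, fewer cells of a segment and less RNA per cell cannot be told apart.

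**Figure D1:**
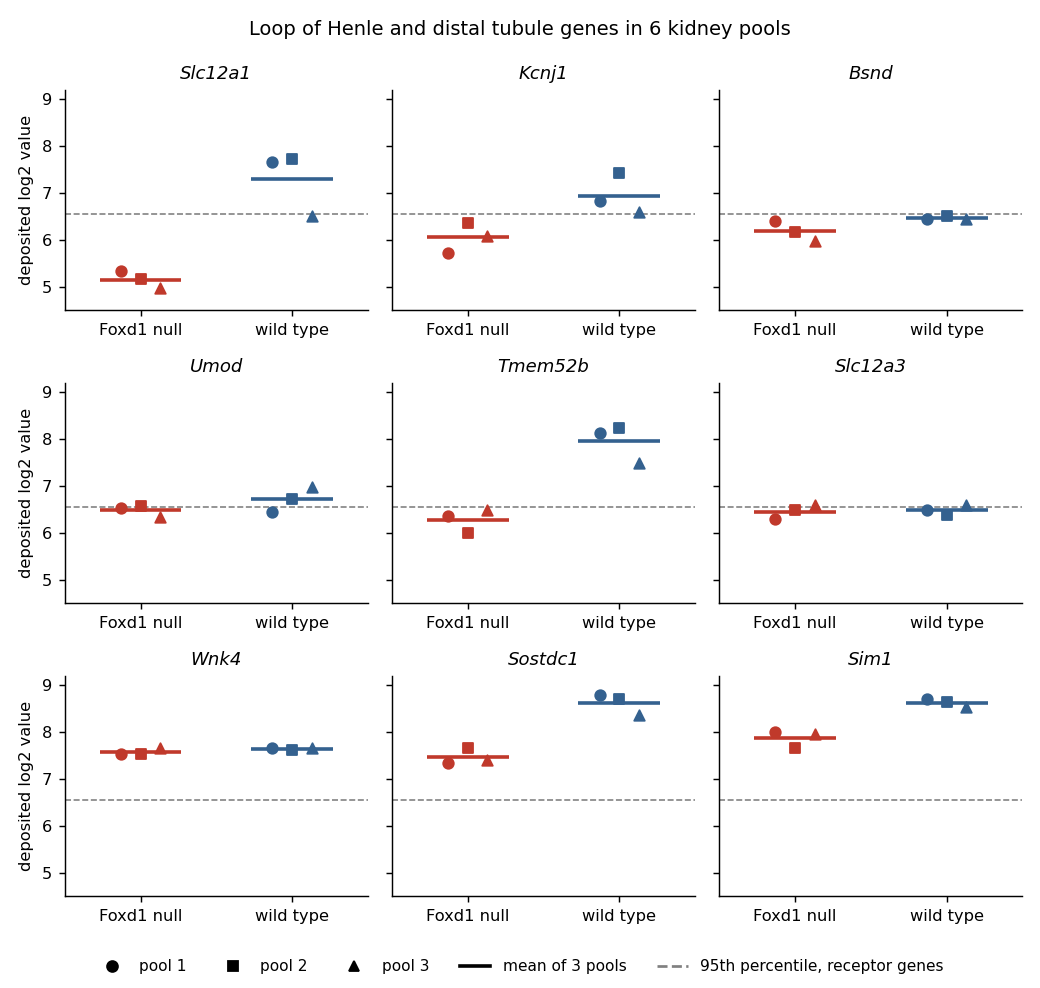
Deposited log2 value of each of the 9 genes in the 3 Foxd1 null pools (red, left) and the 3 wild type pools (blue, right). Symbols mark pools 1, 2 and 3, the bar is the mean of 3 pools, and the dashed line at 6.56 is the 95th percentile of olfactory and vomeronasal receptor genes. Slc12a1, Tmem52b, Sostdc1 and Sim1 stand apart between the groups, while Slc12a3, Umod and Wnk4 overlap.

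The level that a row shows with little target was read from 1194 olfactory and vomeronasal receptor genes, which are not expected in kidney. Their means over the 6 pools had a median of 4.66 and a 95th percentile of 6.56, and 34.7% of all genes lay at or under that percentile. In the null-labelled pools 6 of the 9 genes had a mean at or under 6.56, against 2 of the 9 in the wild type pools. Those 2 were Slc12a3 and Bsnd, and Slc12a1, Umod, Tmem52b and Kcnj1 joined them in the null-labelled pools. Rows differ in how strongly they bind their target, so this is a rough guide, and a fold of the deposited signal understates a change in transcripts that ends near background.

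Slc12a1 encodes NKCC2, the cotransporter of the thick ascending limb and the target of loop diuretics. It stood at 5.33, 5.16 and 4.98 in null-labelled pools 1, 2 and 3, against 7.65, 7.73 and 6.51 in wild type pools 1, 2 and 3. Every null-labelled pool was below every wild type pool, by at least 1.19, and wild type pool 3 was the low one of its group. The mean was 5.16 ± 0.17 in null-labelled pools and 7.30 ± 0.68 in wild type pools (SD, n = 3 each), a fall of the signal of 4.41-fold (log2 difference -2.14, SE 0.27, limma adjusted p = 0.00357). The null-labelled mean was above 64.9% of the receptor genes and the wild type mean above 99.2% of them. Without wild type pool 3 the difference was -2.53, and over all fits that left out 1 pool it lay between -2.53 and -1.93 with an adjusted p of at most 0.028. Slc12a1 did not pass when every row of the array was tested (adjusted p = 0.0646) or with a robust variance model (adjusted p = 0.0694).

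Kcnj1 encodes ROMK, the potassium channel that returns potassium to the lumen of the same segment. It stood at 5.73, 6.36 and 6.09 in the null-labelled pools, against 6.82, 7.42 and 6.59 in the wild type pools. The groups did not overlap, with a gap of 0.23 between the nearest pools, which is less than the range of 0.82 within the wild type group. The difference of -0.88 (SE 0.21, 95% interval -1.35 to -0.42) did not pass the threshold (limma adjusted p = 0.065). It passed without wild type pool 3 (adjusted p = 0.0482) and with an intensity trend in the variance model (adjusted p = 0.0463), and its adjusted p ranged from 0.00923 to 0.246 over 13 alternatives.

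Bsnd encodes barttin, the subunit that carries ClC-K chloride channels to the membrane. Its values were 6.41, 6.17 and 5.97 in the null-labelled pools and 6.44, 6.52 and 6.44 in the wild type pools. The groups were 0.02 apart at their nearest pools, and all 6 values lay under the receptor genes' 95th percentile. The difference of -0.28 (SE 0.11) was not called (limma adjusted p = 0.261), except without null-labelled pool 1 (adjusted p = 0.0488).

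Umod encodes uromodulin, the protein that the thick ascending limb secretes into urine. Umod values of 6.54, 6.57 and 6.34 in the null-labelled pools overlapped those of 6.45, 6.73 and 6.98 in the wild type pools. The highest Umod value was that of wild type pool 3, the pool in which Slc12a1 was low for its group. The difference was -0.23 (SE 0.13, 95% interval -0.52 to 0.05, limma adjusted p = 0.471).

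Tmem52b encodes a membrane protein enriched in the distal nephron of the adult kidney. It stood at 6.36, 5.99 and 6.49 in the null-labelled pools, against 8.13, 8.24 and 7.48 in the wild type pools. All null-labelled pools were lower by at least 0.98, and again wild type pool 3 was the lowest wild type pool. The mean was 6.28 ± 0.26 in null-labelled pools and 7.95 ± 0.41 in wild type pools (SD, n = 3 each), which is 3.17-fold lower (log2 difference -1.67, SE 0.19, limma adjusted p = 0.0024). Tmem52b was called in all 6 fits that left out 1 pool and missed the threshold with every row tested (adjusted p = 0.0504).

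Slc12a3 encodes NCC, the thiazide-sensitive cotransporter of the distal convoluted tubule. It stood at 6.29, 6.49 and 6.59 in the null-labelled pools and at 6.48, 6.38 and 6.59 in the wild type pools. The groups overlapped throughout, and both means lay at about the receptor genes' 94th percentile, above 94.2% of them in null-labelled and 94.4% in wild type pools. The difference of -0.03 had a 95% interval of -0.24 to 0.19 (limma adjusted p = 0.94), so that at this level a fall of the signal by more than 1.18-fold lay outside the interval. Its sign turned to 0.06 without null-labelled pool 1 and to 0.03 without wild type pool 3.

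Wnk4 encodes a kinase that acts on NCC through SPAK. It stood at 7.53, 7.54 and 7.65 in the null-labelled pools, against 7.66, 7.62 and 7.65 in the wild type pools. The spread within a group was small, with an SD of 0.07 in null-labelled and 0.02 in wild type pools. The row lay above 99.6% of the receptor genes in both groups, and the difference of -0.07 (SE 0.07, 95% interval -0.23 to 0.09) was not called (limma adjusted p = 0.76).

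Sostdc1 encodes a secreted antagonist of BMP signals that also binds Wnt co-receptors and is made by distal tubules. It stood at 7.35, 7.66 and 7.41 in the null-labelled pools, against 8.79, 8.70 and 8.37 in the wild type pools. The groups were 0.72 apart at their nearest pools, and the means lay above 99.5% of the receptor genes in null-labelled and 99.8% in wild type pools, so this fall did not end at background by that measure. The mean was 7.47 ± 0.16 in null-labelled pools and 8.62 ± 0.22 in wild type pools (SD, n = 3 each), which is 2.22-fold lower (log2 difference -1.15, SE 0.12, limma adjusted p = 0.00158). Sostdc1 was called under all 14 alternatives, with adjusted p from 0.000193 to 0.0394.

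Sim1 encodes a basic helix-loop-helix transcription factor. It stood at 8.01, 7.67 and 7.96 in the null-labelled pools, against 8.70, 8.64 and 8.54 in the wild type pools. The groups were 0.53 apart, and the 3 wild type pools lay within 0.16 of each other. The mean was 7.88 ± 0.18 in null-labelled pools and 8.63 ± 0.08 in wild type pools (SD, n = 3 each), or 1.68-fold lower (log2 difference -0.74, SE 0.10, limma adjusted p = 0.00479). Sim1 was called in all 6 fits that left out 1 pool, and missed the threshold with every row tested (adjusted p = 0.0594). For each of the 6 genes without overlap, the exact two-sided permutation test of 3 pools against 3 gave p = 0.1, the smallest it can give.

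**Figure D2:**
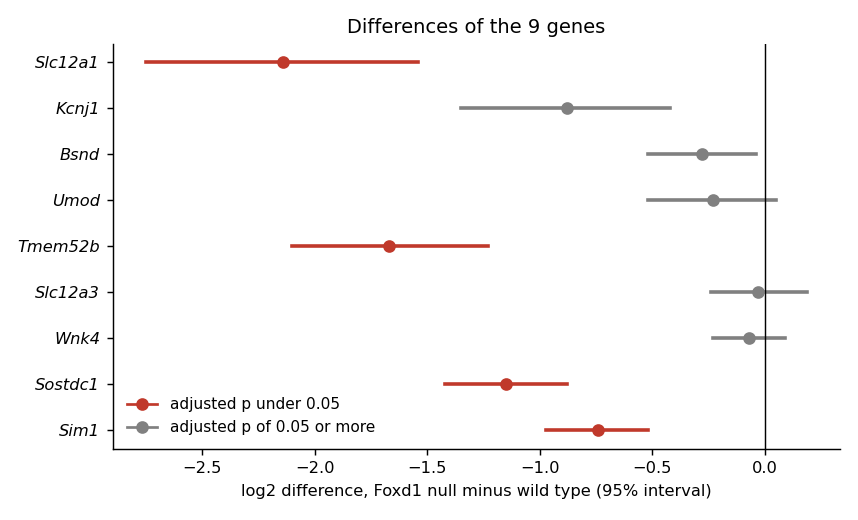
Log2 difference of each gene, Foxd1 null minus wild type (x axis), with its 95% interval from limma. Red marks the 4 genes called at an adjusted p under 0.05; the intervals of Slc12a3, Wnk4 and Umod include 0.

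The same 4 genes are the members listed in the authors' deposited table of 488 probe sets, whose group medians are not those of the deposited log2 columns: for Slc12a1 the medians differ by -1.79 there, turned to log2, against -2.49 in the columns. In the authors' deposited table Slc12a1 was 3.45-fold lower, Tmem52b 3.22-fold, Sostdc1 1.84-fold and Sim1 1.77-fold lower in null. The p-values for the difference in the authors' deposited table were 0.0045, 0.00227, 0.0023 and 0.000276 in that order, from a test that was not stated. The p-value for expression in the authors' deposited table was 0.568 in null and 0.137 in wild type for Slc12a1, and 0.413 in null and 0.0106 in wild type for Tmem52b. For Sostdc1 it was 0.122 in null and 0.0352 in wild type, and for Sim1 0.153 in null and 0.057 in wild type in the authors' deposited table. By that measure 0 of the 4 genes were at 0.05 or under in null, against 2 of 4, Tmem52b and Sostdc1, in wild type.

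Because 3 of the called genes have a promoter entry in RefSeq, the 250 bases before their annotated starts are printed beside those of Slc12a3, the cotransporter that was not called, to show whether they share short motifs. The build is GRCm38.p6, and 7 of the 9 genes were matched. The windows are Slc12a1 at chr2:125152350-125152599, Tmem52b at chr6:129512307-129512556, Sim1 at chr10:50895401-50895650 and Slc12a3 at chr8:94328958-94329207, all on the + strand. Capitals mark a match, on either strand, to any of 4 motifs.
Slc12a1: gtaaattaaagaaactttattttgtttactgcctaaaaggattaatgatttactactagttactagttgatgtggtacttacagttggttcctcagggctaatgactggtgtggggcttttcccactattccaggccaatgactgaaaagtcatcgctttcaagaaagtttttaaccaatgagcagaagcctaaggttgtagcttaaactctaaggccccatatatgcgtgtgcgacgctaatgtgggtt
Tmem52b: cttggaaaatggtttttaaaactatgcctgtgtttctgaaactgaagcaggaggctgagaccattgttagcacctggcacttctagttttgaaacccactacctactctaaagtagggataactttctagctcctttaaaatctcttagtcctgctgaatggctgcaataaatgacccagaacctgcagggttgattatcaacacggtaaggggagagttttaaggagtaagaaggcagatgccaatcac
Sim1: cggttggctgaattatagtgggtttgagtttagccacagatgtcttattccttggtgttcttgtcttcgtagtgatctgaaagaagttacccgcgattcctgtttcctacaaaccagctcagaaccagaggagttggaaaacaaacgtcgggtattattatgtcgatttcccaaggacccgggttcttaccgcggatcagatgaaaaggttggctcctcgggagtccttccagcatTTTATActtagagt
Slc12a3: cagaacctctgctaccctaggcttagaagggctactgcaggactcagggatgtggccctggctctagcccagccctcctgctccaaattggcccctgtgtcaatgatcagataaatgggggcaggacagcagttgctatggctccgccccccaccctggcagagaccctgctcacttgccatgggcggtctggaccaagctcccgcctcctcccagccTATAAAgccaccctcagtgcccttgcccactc
The motifs were TATAAA, the TATA box; GTTAAT, a half-site of the HNF1 factors of nephron epithelium; AAGGTCA, a half-site of nuclear receptors such as Esrrg; and ATGCAAAT, the octamer of POU factors such as Pou3f3. No motif overlaps another in these windows. The Slc12a3 window held a TATA box at 32 to 27 bases before the start, and the Sim1 window held one on the other strand at 14 to 9 bases before it. The windows of Slc12a1 and Tmem52b held none of the 4 motifs. Among the other members with an entry, the Umod window held the HNF1 half-site at 202 to 197 bases before the start, while those of Kcnj1 and Wnk4 held none. Of all 32851 promoter windows of the same length, 12.4% held the TATA box, 6.43% the HNF1 half-site, 4.08% the nuclear receptor half-site and 1.60% the octamer. No motif was shared by the 3 called genes, which says only that these letters are not in these windows.

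Wild type pool 3 was lower than the mean of wild type pools 1 and 2 by 1.18 for Slc12a1 (difference -1.18), and its differences from them were -0.71 for Tmem52b, -0.52 for Kcnj1 and -0.37 for Sostdc1. It was the lowest wild type pool for 6 of the 9 genes and the highest for 2, Umod and Slc12a3; over all genes it was the lowest for 33.0%. The median of 13 proximal tubule markers in that pool, relative to the wild type mean, was -0.21, against 0.13 and 0.08 in wild type pools 1 and 2. The part of this in the results was not tested. Without the pool the 4 calls stood and 5 of the 9 genes were called lower. For the 4 called genes this pool was the lowest of its group, so leaving it out widens the difference and cannot show its part.

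The genes most like Slc12a1 over the 6 pools, by the root mean square distance after each gene's own mean was subtracted, were Keg1, Dpp4 and Lrp2. Keg1 had a distance of 0.216, with 5.62, 5.76 and 5.94 in the null-labelled pools and 8.34, 8.23 and 7.32 in the wild type pools. Dpp4, a brush border peptidase, had a distance of 0.282, and Lrp2, the endocytic receptor megalin, 0.327. Keg1 and Lrp2 are on the list of proximal tubule markers, and both shared the low value in wild type pool 3. For Sostdc1 the nearest genes were Slc15a2, a peptide transporter, with a distance of 0.119, Atp1b1 with 0.124 and Osr2, a transcription factor of the forming nephron, with 0.131. These distances are descriptions over 6 pools of 2 groups, and genes that differ between the groups are close to each other for that reason alone.

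**Figure D3:**
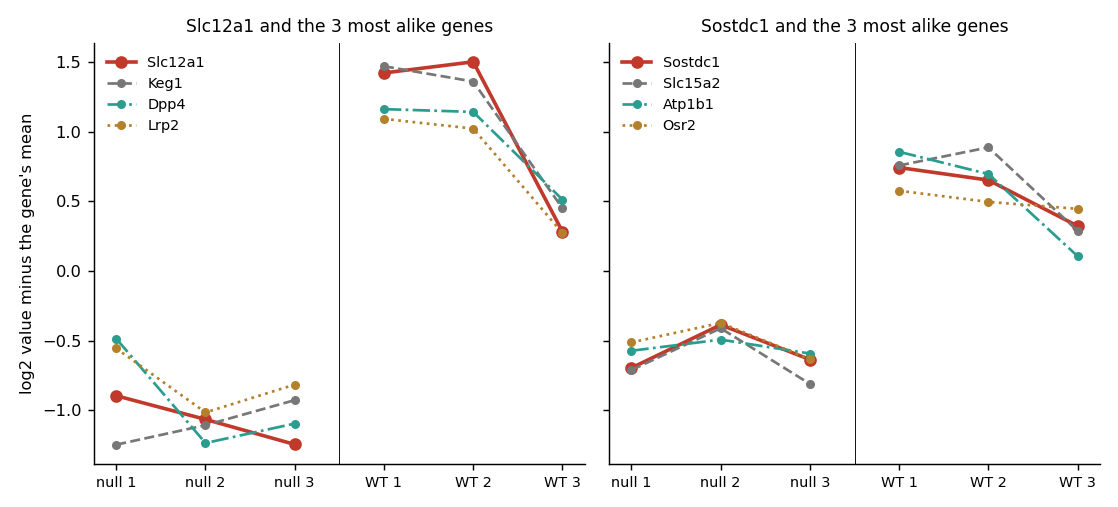
Log2 value minus the gene's own mean (y axis) in the 6 pools (x axis; null, then WT for wild type) for Slc12a1 (left) and Sostdc1 (right) with the 3 genes of smallest distance to each. Lines join pools of 1 group only to guide the eye; Slc12a1, Keg1, Dpp4 and Lrp2 are all lower in wild type pool 3 than in wild type pools 1 and 2.

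Further genes were taken from 7 lists of 107 genes in all, of which 100 were measured. The lists cover these segments, WNK and SPAK kinases, S-shaped body patterning, partners of Sostdc1, and family relatives of the 9 genes. Counts over the 100 are therefore not counts for these segments alone. The lists, too, were chosen with earlier results of these data known. Of those 100, 16 fell and 1 rose, against 0.767% lower and 1.64% higher over all genes, and their median difference was -0.04. The number that fell was 8 once wild type pool 1 was left out, 9 once wild type pool 2 was, and 4 when every row of the array was tested.

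Of 12 measured genes listed for thick ascending limb transport 4 fell, 0 rose and 8 did not pass, with a median difference of -0.10. Atp1b1, the beta subunit of the sodium pump that drives salt uptake, stood at 8.98, 9.06 and 8.96 in the null-labelled pools, against 10.41, 10.25 and 9.66 in the wild type pools. It fell by 1.11 (SE 0.16, limma adjusted p = 0.00749), and wild type pool 3 was again the lowest of its group. Fxyd2, a small regulator of the same pump, fell by 0.81 (SE 0.13, adjusted p = 0.0106). Cldn16 and Cldn10, claudins of the path between cells, fell by 0.96 (SE 0.17, adjusted p = 0.0205) and 0.63 (SE 0.08, adjusted p = 0.00473). The 2 genes with the highest level that did not pass were Cldn19, the partner of Cldn16, with a difference of -0.01 (adjusted p = 0.98), and the water channel Aqp1 with 0.26 (adjusted p = 0.449). All 4 calls were lost when every row was tested (adjusted p 0.051 to 0.143), and Cldn16 (adjusted p = 0.0852) and Fxyd2 (adjusted p = 0.0568) lost theirs without wild type pool 1. Cldn16 also lost its call without wild type pool 2 (adjusted p = 0.0876). Fxyd2, Atp1b1 and Cldn10 are also made outside the thick ascending limb. The list is broader than that segment, as Aqp1 belongs to other segments, so its count and median are not those of the segment alone.

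Of 15 measured genes of the distal convoluted and connecting tubule 1 fell, 0 rose and 14 did not pass, with a median difference of -0.04. S100g, the small calcium-binding calbindin, stood at 7.12, 7.15 and 7.23 in the null-labelled pools, against 7.94, 8.10 and 7.66 in the wild type pools, and fell by 0.73 (SE 0.11, limma adjusted p = 0.00791). The groups did not overlap. Calb1, the larger calbindin that embryonic kidneys also make in the ureteric bud, differed by 0.32 (SE 0.08, adjusted p = 0.0884), and the calcium pump Atp2b1 by 0.14 (adjusted p = 0.452). Of 12 genes of the WNK and SPAK kinase pathway 0 were called in either direction by limma, and 2 had an unadjusted p under 0.05. Their median difference was 0.01. Cul3, the scaffold of the ligase that removes WNK kinases, differed by 0.03 (adjusted p = 0.907), and Wnk1 by 0.17 (adjusted p = 0.292).

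Of 16 measured transcription factors of the distal segments 5 fell, 0 rose and 11 did not pass, with a median difference of -0.29. Lhx1, needed in the renal vesicle and after it, stood at 7.19, 6.96 and 7.08 in the null-labelled pools, against 8.29, 8.18 and 8.30 in the wild type pools. It fell by 1.18 (SE 0.08, limma adjusted p = 0.000317), and the gap between the groups was wider than the range within either. Pax8, a paired box factor of nephron epithelium, fell by 0.77 (SE 0.11, adjusted p = 0.00606). Emx2 fell by 0.62 (SE 0.13, adjusted p = 0.0414), Tfap2b, a factor of distal tubules, by 0.60 (SE 0.12, adjusted p = 0.0386), and Esrrg, an orphan nuclear receptor, by 0.59 (SE 0.11, adjusted p = 0.0245). Lhx1 and Pax8 were called in all 6 fits that left out 1 pool, while Tfap2b and Esrrg were called in 2 and Emx2 in 1 of the 6. Of these 5 genes, 3 were called once null-labelled pool 2 or wild type pool 3 was left out, and 2 once null-labelled pool 3, wild type pool 1 or wild type pool 2 was. Mecom differed by -0.42 (adjusted p = 0.0756) and Gata3, a factor of the ureteric bud and collecting duct, by 0.09 (adjusted p = 0.716).

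Of 16 genes of S-shaped body patterning 6 fell, 0 rose and 10 did not pass, with a median difference of -0.21. Osr2 fell by 1.01 (SE 0.09, limma adjusted p = 0.000576), Bmp2 by 0.98 (SE 0.11, adjusted p = 0.00252) and the cadherin Cdh6 by 0.85 (SE 0.09, adjusted p = 0.00191), and these 3 were called under all alternatives. Dkk1, a Wnt antagonist, fell by 0.57 (adjusted p = 0.0316), Cdh1, the cadherin of distal and ureteric epithelium, by 0.51 (adjusted p = 0.0211), and the sulfate enzyme Papss2 by 0.40 (adjusted p = 0.0355), each losing its call in 4 or more of the 6 fits that left out 1 pool. Accordingly 3 genes of this list were called once pool 3 of the null-labelled group, or pool 1 or 2 of the wild type group, was left out. The Notch ligand Jag1 differed by -0.02 (adjusted p = 0.954) and the receptor Notch2 by 0.04 (adjusted p = 0.872). Other genes of the Notch pathway on the list were lower but also not called. Hey1 differed by -0.31 (adjusted p = 0.0534), Dll1 by -0.22 (adjusted p = 0.318) and Hes1 by -0.20 (adjusted p = 0.231). Hes5 differed by -0.16 (adjusted p = 0.323) and Notch1 by -0.08 (adjusted p = 0.736).

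Of 13 ligands, receptors and antagonists that share the BMP and Wnt pathways with Sostdc1, 1 rose, 0 fell and 12 did not pass, with a median difference of 0.01. Bmp5, a ligand made in stroma, stood at 9.24, 9.06 and 9.44 in the null-labelled pools, against 8.25, 8.40 and 8.42 in the wild type pools, and rose by 0.89 (SE 0.10, limma adjusted p = 0.00219). Its groups did not overlap. The receptors Bmpr2 and Bmpr1a differed by 0.17 (adjusted p = 0.402) and 0.17 (adjusted p = 0.461). Of 16 family relatives of the 9 genes 0 were called by limma and 1 had an unadjusted p under 0.05. Slc12a2, the NKCC1 cotransporter found in many cell types, stood at 10.64 ± 0.12 in null-labelled pools and 10.61 ± 0.09 in wild type pools (SD, n = 3 each; adjusted p = 0.901), and Arnt, a partner of SIM proteins, differed by 0.15 (adjusted p = 0.486).

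**Figure D4:**
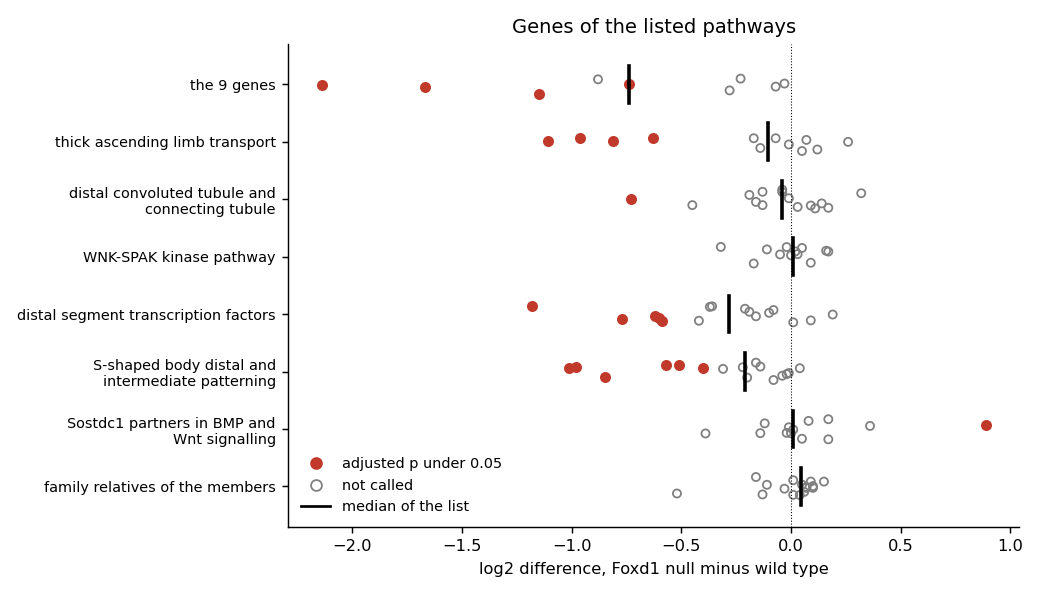
Log2 difference, Foxd1 null minus wild type (x axis), of the 9 genes and of each measured gene of the 7 lists (rows). Filled red points were called at an adjusted p under 0.05, open points were not, and the black bar is the median of the list. Calls lie to the left except Bmp5 at 0.89.

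Markers of some other nephron and kidney cells moved too, where 0.767% of all genes were called lower and 1.64% higher. Of 8 nephron progenitor markers 1 fell and 1 rose (median difference -0.05). Of 13 proximal tubule markers 6 fell and 0 rose (median difference -0.55), and of 8 podocyte markers 2 fell and 0 rose (median -0.14). Of 10 markers of the renal vesicle and pretubular aggregate 4 fell and 1 rose (median -0.32). These 4 were Lhx1, Pax8, Cdh6 and Osr2, already given above, so they are not further genes. Of 12 markers of ureteric bud and collecting duct 0 fell and 1 rose (median -0.01), and of 10 stroma markers 0 fell and 6 rose (median 0.56). Of 8 endothelium markers 0 fell and 4 rose (median 0.46), and of 7 macrophage markers 0 fell and 3 rose (median 0.52). The mean level of the proximal tubule list was 6.77, 6.70 and 6.80 in the null-labelled pools, against 7.56, 7.55 and 7.17 in the wild type pools, and 3 of its 13 genes had a mean under the receptor genes' 95th percentile in null-labelled pools, against 1 in wild type. The mean level of the stroma list was 9.68 to 9.88 in null-labelled pools and 9.09 to 9.21 in wild type pools. The part of these shifts in the values of the 9 genes was not tested.

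**Figure D5:**
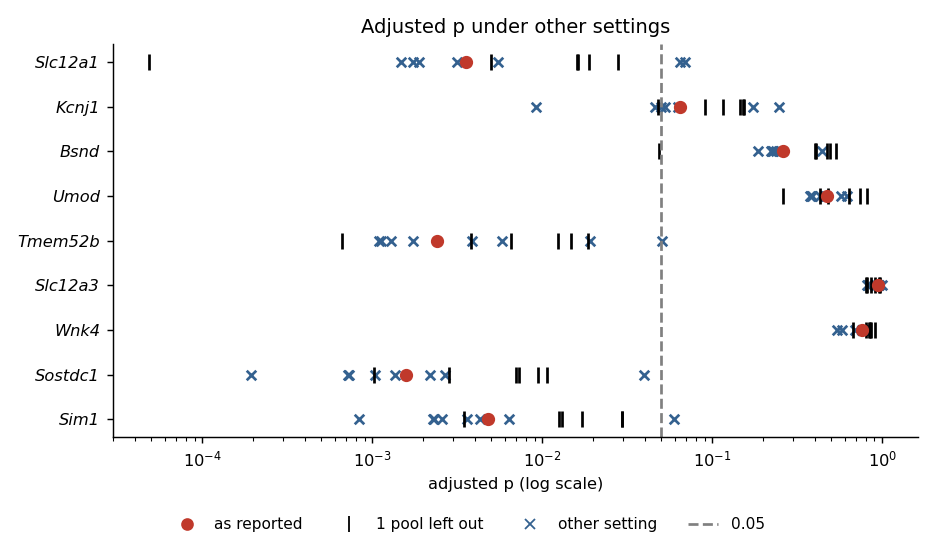
Adjusted p of each of the 9 genes (x axis, log scale) as reported (red), with 1 pool left out (bars) and under the other settings (crosses); the dashed line is 0.05. Sostdc1 lies left of the line at every setting, and Slc12a3, Umod and Wnk4 lie right of it at every setting.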

How the data were processed

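RNA of each pool (50 ng) was amplified to cDNA with a NuGEN kit and labelled with biotin, per the labels' protocols. The deposited log2 values, 1 column per pool, were used as given; the authors' program for summarising and normalizing the arrays was not stated. The log2 scale was read from the values: over 488 probe sets shared with the authors' deposited table, the slope of the differences of medians on that table's natural log differences was 1.50, where 1 over ln 2 is 1.443. That deposited table also holds a signed linear fold, used as a score, and p-values for the difference and for expression in each group. Of 35556 rows 21789 had 1 symbol in the platform annotation; the row with the highest mean was kept per gene, giving 19938 genes.

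A linear model with genotype as its single term was fitted to the 6 arrays (limma 3.58.1, R 4.3.3, moderated by eBayes), and p-values were adjusted over all genes. The median SE was 0.086; the number of arrays limits the precision. On simulated data the test was checked before use. Replicate numbers were not taken to pair the pools in the reported model. Deviations of same-numbered pools correlated weakly, at 0.125, 0.068 and 0.053. Those of pools with different numbers lay between -0.097 and 0.038. Deviations were taken from each group's own mean, so higher values in some pairs force lower ones in others. The contrast therefore cannot decide whether the pools are paired. A fit with the replicate number as a block is given among the alternatives. Sequences come from RefSeq promoters of GRCm38.p6. Python 3.11.15 joined tables. The 9 genes, the lists and the tests were chosen with earlier results of these data known. Named list genes were those called (up to 6) and the 2 of highest level not called; genes named otherwise were chosen after their values were seen. List members missing from the array's single-symbol rows were not analysed here.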

Additional observations from a re-analysis of the deposited data

How the results depend on the processing

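The number of the 9 genes called lower was 4 and lay between 3 and 5 under all alternatives but one: it was 1, Sostdc1, when all rows of the array were tested and adjusted together. That setting also gave 61 genes higher and 29 lower, counted on the row kept for each gene, with 108 of all rows called. Among the listed pathway genes 4 were lower. The cause of the smaller counts was not tested. Leaving out 1 pool gave 127 to 572 genes higher and 64 to 171 lower over all genes, 0 higher and 4 to 5 lower among the 9, and 1 to 2 higher and 8 to 17 lower among the pathway genes. The pathway genes called higher were 1 as reported, 2 with the filter on low rows, 2 with an intensity trend and 3 with the trend and robust variances. Among the genes recomputed, a change of sign was seen for Slc12a3, at 0.06 without null-labelled pool 1 and 0.03 without wild type pool 3, in a range of -0.09 to 0.06 with 1 pool left out. With the replicate number as a block, 381 genes were higher and 158 lower, and 5 of the 9 were lower. Kcnj1 was among these 5 (limma adjusted p = 0.00923), while Emx2 and Papss2 lost their calls (limma adjusted p = 0.0557 and 0.0509). Whether same-numbered pools belong together was not tested. Quantile normalization and median centring kept all 4 calls among the 9. The filter left Slc12a1, Slc12a3, Bsnd and Kcnj1 untested, and no gene of the 9 had a further row to try. The number of pools and the nearness of 6 null-labelled means to background limit what can be said of sizes.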

Other observations

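Some listed genes that were not called are named here after their values were seen, some just outside the threshold and some far from it. Sim2, the relative of Sim1, stood at 6.44, 6.22 and 6.28 in the null-labelled pools, against 7.00, 6.92 and 6.56 in the wild type pools, a difference of -0.52 (SE 0.12, limma adjusted p = 0.0551) in groups that did not overlap. Irx3, an Iroquois factor of the intermediate nephron, differed by -0.37 (adjusted p = 0.0692), and Irx1 by -0.36 (adjusted p = 0.281), while Irx2 differed by 0.01 (adjusted p = 0.981). Nedd4l, a ubiquitin ligase that acts on sodium transporters, differed by -0.32 (adjusted p = 0.0949) and had no overlap between groups. Bmp7, a BMP ligand that Sostdc1 binds, differed by -0.39 (adjusted p = 0.071), and Bmp4 by 0.36 (adjusted p = 0.0759). Casr, the calcium sensor of the thick ascending limb, differed by 0.07 (adjusted p = 0.852), and Egf by -0.07 (adjusted p = 0.78).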
